A study of Homo sapiens with 16 samples.

Results

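The 10 genes PRPS1, PRPS2, PPAT, GART, PFAS, PAICS, ADSL, ATIC, IMPDH1 and IMPDH2 encode the enzymes that build purine nucleotides from ribose phosphate, chosen by name, and all 10 were measured among 19775 genes in all. They were followed in MIA PaCa-2, a human pancreatic carcinoma line, treated for 12 hours with 2.5 µM PP242, which blocks the ATP site of the kinase mTOR, or with the vehicle DMSO. Cytosolic RNA (Total) and RNA pooled from the sucrose-gradient fractions that carried over 3 ribosomes an mRNA (Poly) were hybridised to Affymetrix 3' arrays, giving the groups Total NT and Poly NT (vehicle) and Total 242 and Poly 242 (PP242), with 4 replicates each. All 16 arrays come from 1 cell line, and nothing in the labels ties replicates to separate cultures, so the p-values describe sample-to-sample spread, which may be technical.

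Purine synthesis starts when the PRPP synthetases PRPS1 and PRPS2 activate ribose phosphate. PPAT then takes the committed step, GART, PFAS and PAICS build up the ring, ADSL removes fumarate from an intermediate, and ATIC closes the ring to give IMP. IMPDH1 and IMPDH2 turn IMP toward guanine nucleotides. The mTOR complex 1 is known to support the pathway in growing cells, in part through ATF4 and the mitochondrial folate enzyme MTHFD2, which supplies one-carbon units, and MYC is a known activator of several of the genes. These statements are background, not array results.

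Values are log2 signals (RMA, a summary of the probes of a probe set), with 1 probe set standing for a gene, so levels of different genes cannot be set against each other. Effects are PP242 minus vehicle inside a pool, ± the standard error of the limma contrast, and a gene was called at a Benjamini-Hochberg adjusted p under 0.05 over all genes. An effect is relative to the other mRNAs of its pool, and a polysome loss common to every gene would not be seen. The 10 genes were well measured: their lowest value on any array was 8.14 and their highest 12.46, against array medians of 4.57 to 5.05. The carcinoma keratins KRT8, KRT18 and KRT19 and vimentin had group means from 9.29 to 14.31. Of the markers of other cell types, 14 of 15 measured lay at group means of 7.15 or lower, and COL1A2, a collagen gene of fibroblasts, was at 10.96 to 12.21. The Total 242 arrays were the noisiest, with a median gene SD of 0.245 against 0.122 in Total NT, and replicates 2 and 4 of that group had the lowest array weights (0.360 and 0.251).

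PPAT and PAICS lie head to head on chromosome 4, and the DNA between their starts is shown because both mRNAs were lower on polysomes after PP242. In the RefSeq promoter table (GRCh38.p14) PPAT runs on the minus strand from 56435615 and 1 of 3 listed PAICS starts lies at 56435752 on the plus strand, 137 bases away. The 12 promoter windows found, covering 8 of the 10 genes (none for ADSL and IMPDH2), span 250 bases before to 50 after a start. They were searched on both strands for the E-box CACGTG, which MYC can bind, for the NRF1 palindrome, for GCGCGAAA (E2F-like) and for TGATGNAA (C/EBP-ATF). The E-box was found in windows of PPAT, PAICS and ATIC, not in those of PRPS1, PRPS2, GART, PFAS and IMPDH1, and in 7.26% of all 35116 windows. The PPAT and PAICS matches are the same site, at chr4:56435792-56435797, 182 bases before the PPAT start. It lies 40 bases after the PAICS start at 56435752, so outside the bases between the starts. ATIC, which was higher in treated cytosol, had one 46 bases before its start and one after it. The other 3 motifs were found in 0 of the 12 windows, which says only that these letters are absent there; they occur in 1.24%, 0.515% and 3.62% of all windows. Below are the plus-strand bases between the PPAT and PAICS starts (chr4:56435616-56435751), the shared E-box with its flanks (chr4:56435780-56435809) and the 250 bases before ATIC (chr2:215311809-215312058, plus strand), with the E-box in capitals. A match describes the letters and shows no binding.
PPAT-PAICS between the starts: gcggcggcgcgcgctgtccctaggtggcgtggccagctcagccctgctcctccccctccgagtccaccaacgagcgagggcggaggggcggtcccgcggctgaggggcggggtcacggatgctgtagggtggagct
PPAT-PAICS E-box: ctgtatttgctgCACGTGgaaatctccgtt
ATIC before its start: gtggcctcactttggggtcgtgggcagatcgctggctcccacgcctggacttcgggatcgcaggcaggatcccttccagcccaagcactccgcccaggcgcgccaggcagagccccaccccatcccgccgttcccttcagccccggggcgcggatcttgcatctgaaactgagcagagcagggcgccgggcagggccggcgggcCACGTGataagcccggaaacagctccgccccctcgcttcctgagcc

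Which enzymes changed on polysomes? PRPS1, PPAT and PAICS were called lower. PRPS2, GART and ADSL had negative effects without a call, and PFAS, ATIC, IMPDH1 and IMPDH2 had effects near 0. Differences between the genes were not tested. Of the 10 genes 3 were called lower, where 6.55% of all genes were called lower, and 0 were called higher, where 6.81% of all genes were. The median effect of the 10 was -0.305 against -0.005 over all genes. With the replicate number as a block, PRPS2 and GART were called as well, so 5 of 10 were lower against 9.7% of all genes. The values of 4 of the 10 did not overlap between Poly NT and Poly 242, all lower, as in 9.86% of all genes.

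PRPS1, on the X chromosome, makes PRPP, the ribose donor of all purine rings. On Poly NT arrays 1 to 4 it read 10.12, 10.44, 10.41 and 10.40, and on Poly 242 arrays 8.99, 9.20, 8.97 and 9.42. Every treated array lay at least 0.7 below every vehicle array. The effect was -1.20 ± 0.15 (n = 4 per group, adjusted p = 1.46e-05), a 2.29-fold fall with a 95% confidence interval of 1.85 to 2.84. By replicate number the change was -1.13, -1.24, -1.44 and -0.98.

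PRPS2 is the second PRPP synthetase, also X-linked. It read 10.39, 10.70, 10.46 and 10.61 on Poly NT and 9.85, 10.07, 9.92 and 10.09 on Poly 242. The groups did not overlap and the changes by number were nearly equal, from -0.63 to -0.52. The effect of -0.56 ± 0.18 had an adjusted p of 0.0534 and was not called; the blocked fit gave 0.0331, and the fit on the 8 polysome arrays alone gave 0.00299. It was also called when any 1 Total 242 array was left out (0.0127 to 0.0443), which alters only the shared spread. Its second probe set moved by -0.69 ± 0.14 (adjusted p = 0.00298 over all probe sets).

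PPAT, the amidophosphoribosyltransferase of the committed step, read 9.42, 9.53, 9.71 and 9.54 on Poly NT and 8.90, 8.89, 8.82 and 9.08 on Poly 242. The groups were 0.34 apart at their nearest arrays. The effect was -0.63 ± 0.17 (adjusted p = 0.0154), or 1.54-fold. The call was lost without Poly NT replicate 3 (adjusted p = 0.0526) and without all arrays of number 2 (0.0966) or 3 (0.11). It was also lost with numbers 1 and 2 only (0.0628) and with numbers 3 and 4 only (0.0721). A second probe set of PPAT fell by 0.64, while the dimmest, with a mean of 5.86, had 0.46 (adjusted p = 0.0717), so the mean of the 3 probe sets was not called (-0.27, adjusted p = 0.175).

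PAICS, which carries a carboxylase and a ligase of the ring, read 10.98, 11.32, 11.20 and 11.12 on Poly NT and 10.30, 10.25, 10.19 and 10.57 on Poly 242. No array of one group reached the other. The effect was -0.83 ± 0.11 (adjusted p = 3.90e-05), or 1.77-fold with an interval of 1.51 to 2.09. Its second probe set, with a mean of 9.94, was called lower as well (-1.04). The third was also called lower (-0.45, adjusted p = 0.0147 over all probe sets). With a mean of 3.61 it lay below the array medians and is not read as a fall.

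**Figure D1:**
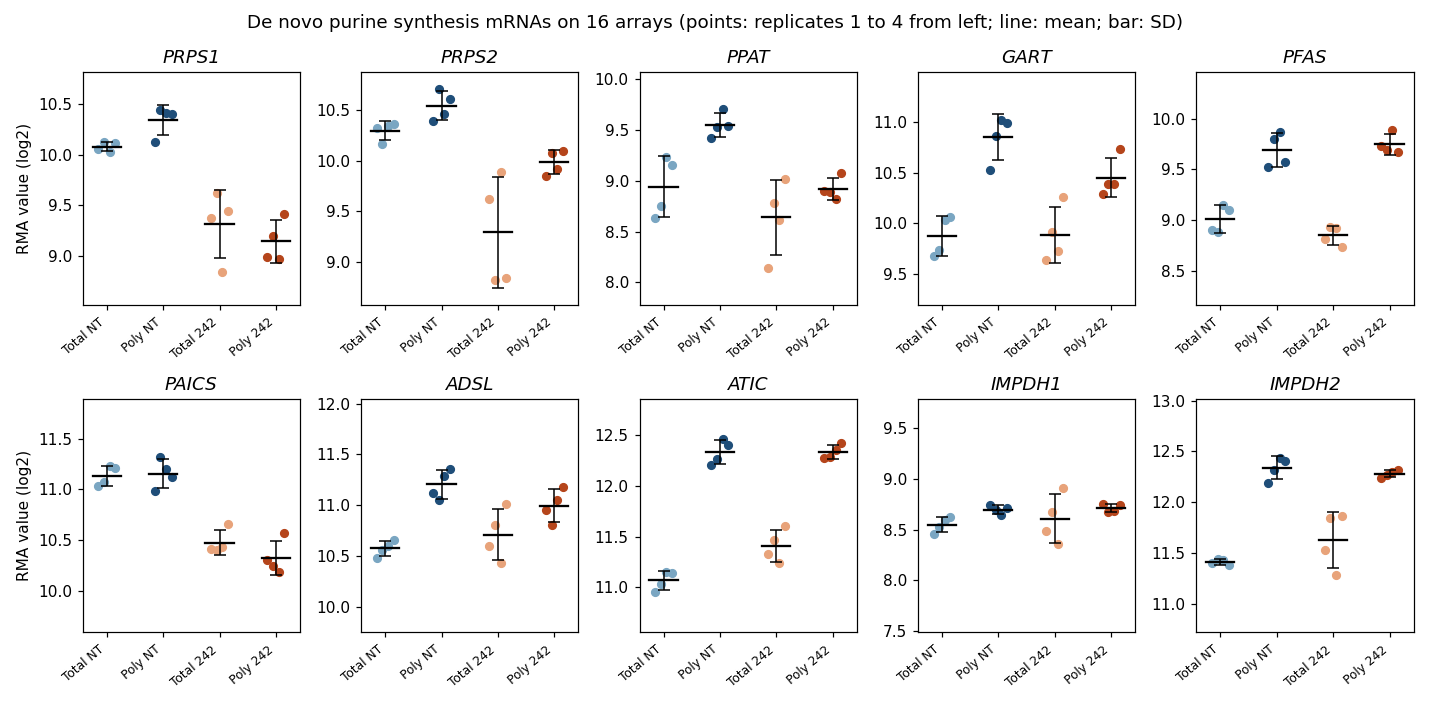
Log2 RMA value (vertical axis, a span of 2.3 in each panel) of the 10 mRNAs in Total NT, Poly NT, Total 242 and Poly 242; points are replicates 1 to 4 from left to right, lines are means and bars SDs. PRPS1 and PAICS sit lower in both PP242 groups, and PRPS2 falls apart in Total 242 into arrays near 9.7 and arrays near 8.8.

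GART, a protein with 3 of the pathway's enzyme activities, read 10.53, 10.86, 11.02 and 10.99 on Poly NT and 10.29, 10.39, 10.39 and 10.73 on Poly 242. Replicate 4 of the treated group lay above replicate 1 of the vehicle group, although all 4 numbers changed downward, by 0.24 to 0.63. The effect was -0.40 ± 0.15 with an adjusted p of 0.0951, and 0.00672 with the block. It was called without Poly NT replicate 1 (0.0394) or without Poly 242 replicate 4 (0.0496). Of the other GART probe sets, 212379_at was called lower (-0.43, adjusted p = 0.0474 over all probe sets). The set 210005_at had -0.68 (0.0541), and the rest ran from -0.18 to 0.455 with none called. ADSL, which cleaves fumarate off in 2 steps of the purine routes, had -0.21 ± 0.12 (adjusted p = 0.348), also downward in 4 of 4 numbers (-0.25 to -0.17). The second ADSL probe set had -0.43 and was not called (adjusted p = 0.0782 over all probe sets).

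The other enzymes lay close to 0 on polysomes. PFAS, the amidotransferase that acts between GART activities, had 0.06 ± 0.11, with a 95% interval of -0.18 to 0.29. ATIC, the last enzyme to IMP, had -0.002 ± 0.10 (interval -0.21 to 0.21). IMPDH1 had 0.02 ± 0.11 (-0.22 to 0.25) and IMPDH2 -0.06 ± 0.11 (-0.30 to 0.18). These intervals leave room for changes of up to about 0.3 in either direction, and a fall as large as that of PAICS lies outside each of them.

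Which enzymes changed in cytosolic RNA? PRPS1, PRPS2 and PAICS fell there too, and ATIC rose slightly. Of the 10 genes 3 were called lower (7.91% of all genes were) and 1 higher (8.54% of all genes were). The median effect was -0.075 against 0.040 over all genes. The groups did not overlap for 3 genes in the lower direction (8.34% of all genes) and 1 in the higher (9.34%).

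PRPS1 read 10.06, 10.12, 10.03 and 10.11 in Total NT and 9.38, 9.62, 8.84 and 9.44 in Total 242. The treated arrays were all below the vehicle arrays and spread more widely. The effect was -0.76 ± 0.15 (adjusted p = 0.00137). The second probe set gave -0.83.

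PRPS2 read 10.32, 10.16, 10.34 and 10.36 in Total NT and 9.62, 8.82, 9.89 and 8.84 in Total 242. Replicates 2 and 4, the low-weight arrays named above, were about 1 unit lower than replicates 1 and 3. The effect was a 2.00-fold fall (adjusted p = 8.95e-04) with all arrays and -0.54 on the log2 scale (adjusted p = 0.00777) without those 2. The second probe set gave -0.50 (adjusted p = 0.0237), so the direction was the same in each and the size was not.

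PAICS read 11.03, 11.07, 11.23 and 11.21 in Total NT and 10.41, 10.40, 10.43 and 10.66 in Total 242. The groups were well apart, and the change by number ran from -0.80 to -0.55. The effect was -0.66 ± 0.11 (adjusted p = 3.78e-04), and the second probe set was called lower too (-0.68).

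ATIC was higher in treated cells, at 11.33, 11.47, 11.24 and 11.60 against 10.95, 11.03, 11.15 and 11.14. The nearest arrays were 0.09 apart. The effect was 0.34 ± 0.10 (adjusted p = 0.0233), positive in 4 of 4 numbers. The call was lost without Total NT replicate 1 (adjusted p = 0.0808) or 2 (0.0605), without Total 242 replicate 2 (0.0590) or 4 (0.0746), and with the 8 cytosolic arrays alone (0.0926). Without Total 242 replicates 2 and 4 together the effect was 0.22 (adjusted p = 0.210).

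PPAT, the divergent neighbour of PAICS, read 8.63, 8.75, 9.24 and 9.16 in Total NT and 8.14, 8.78, 8.62 and 9.02 in Total 242. These groups overlapped, with an effect of -0.31 ± 0.17 (adjusted p = 0.232), and -0.57 (adjusted p = 0.0495) without Total 242 replicates 2 and 4. Its second probe set was called at -0.65 (adjusted p = 0.0113). PAICS was called in both pools with both of its brighter probe sets, and PPAT in the cytosol with one of 3.

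GART had 0.01 ± 0.15, PFAS -0.16 ± 0.11, ADSL 0.14 ± 0.12, IMPDH1 0.06 ± 0.11 and IMPDH2 0.22 ± 0.11, none of them called. IMPDH2, the main isoform in proliferating cells, read 11.53, 11.84, 11.28 and 11.86 in Total 242 around vehicle values of 11.38 to 11.44. It was called higher under quantile scaling over all arrays (0.32, adjusted p = 0.0345) and without Total 242 replicate 3 (0.33, adjusted p = 0.0193), and was at -0.01 without Total 242 replicates 2 and 4. A further GART probe set, 210005_at, with a mean of 6.71, fell by 0.99 in the cytosol (adjusted p = 0.00514) while the leading set had 0.01, so the 9 GART probe sets disagree.

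**Figure D2:**
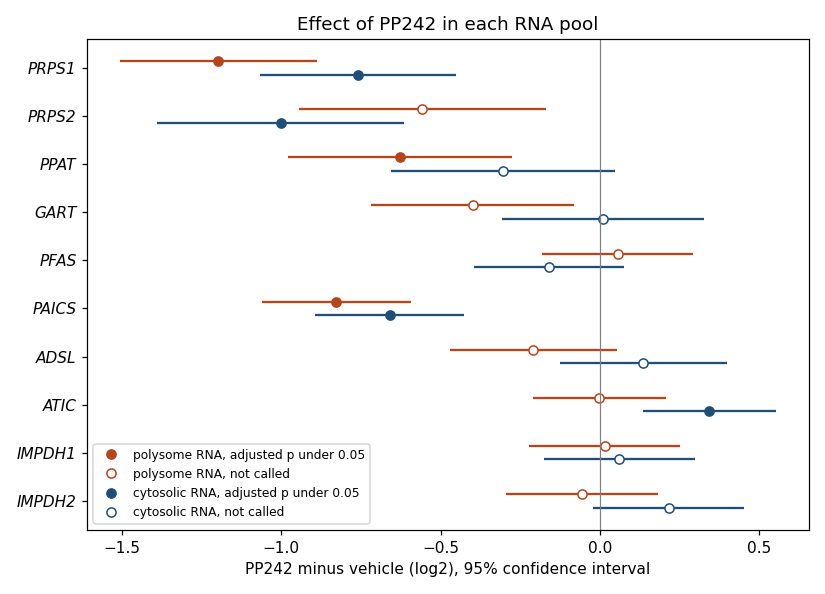
PP242 minus vehicle on the log2 scale (horizontal axis) for each of the 10 mRNAs, in polysome and cytosolic RNA, with 95% confidence intervals; filled points had an adjusted p under 0.05. PRPS1 and PAICS are filled and negative in both pools, and ATIC is filled and positive in cytosolic RNA, at 0.34.

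**Figure D3:**
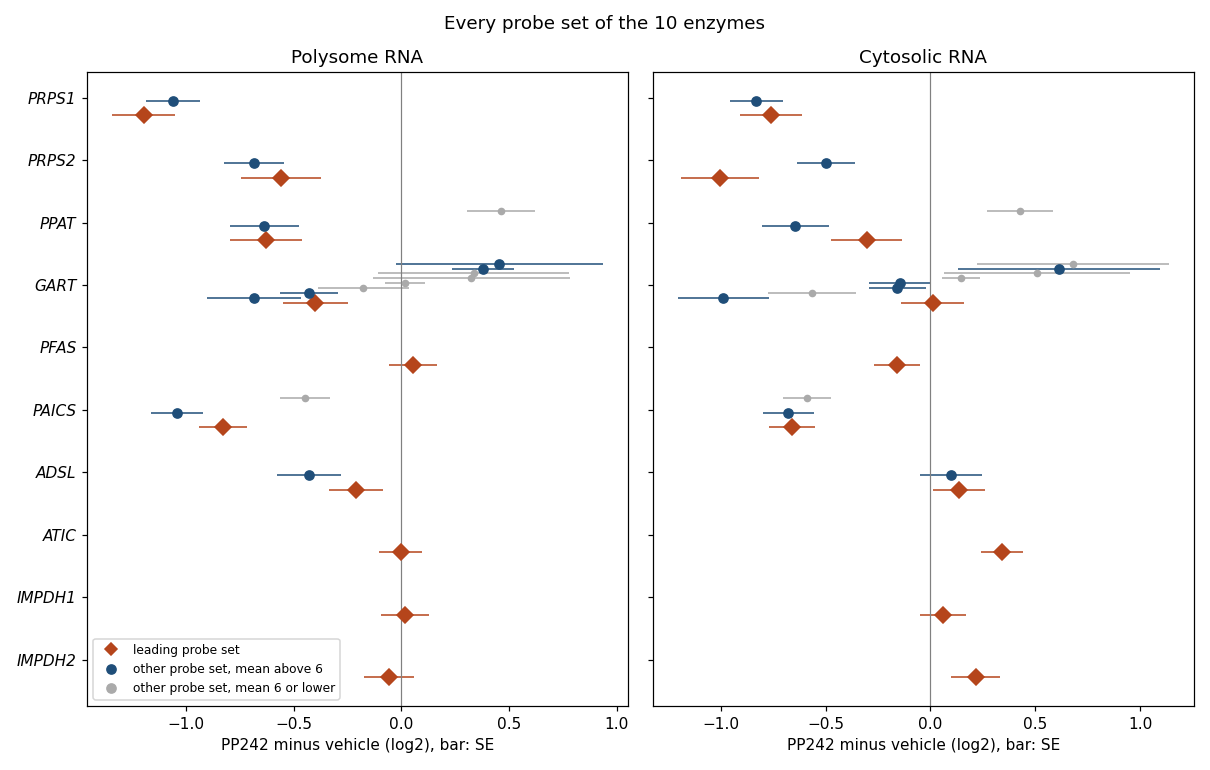
The same effect for all 25 probe sets of the 10 genes, with standard errors, in polysome RNA (left) and cytosolic RNA (right). The probe sets of PRPS1 and PRPS2 and the 2 brighter ones of PAICS lie below 0 in both pools, while those of GART spread to both sides.

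Did polysome association change? The difference between the polysome and the cytosolic effect was called for 0 of the 10 genes, and for 0 of all 19775 (0% of all genes) by limma, with 1750 genes (8.85%) at an unadjusted p under 0.05. A fit on 8 differences, each pairing the polysome and the cytosolic array of a number, called 0 of the 10 as well. By leading probe set the difference was below 0 for 8 of the 10 genes, with a median of -0.297 against -0.040 over all genes. PRPS1 (-0.44 ± 0.21) and ATIC (-0.35 ± 0.14) had unadjusted p-values of 0.0494 and 0.0243 and an adjusted p of 0.558 each. GART had -0.41 ± 0.21, ADSL -0.35 ± 0.18, PPAT -0.32 ± 0.24, IMPDH2 -0.27 ± 0.16, PAICS -0.17 ± 0.16 and IMPDH1 -0.05 ± 0.16.

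PFAS (0.22 ± 0.16) and PRPS2 (0.45 ± 0.26) had the positive values. That of PRPS2 rested on the low-weight arrays: without Total 242 replicates 2 and 4 it was -0.02, and the median of the 10 went from -0.297 to -0.087. PRPS1 was then at -0.23, ATIC at -0.22, GART at -0.21, ADSL at -0.15, PAICS at -0.11, PPAT at -0.06, IMPDH2 at -0.05, IMPDH1 at 0.14 and PFAS at 0.20. The falls of PRPS1 and PAICS on polysomes stood beside falls in the cytosol, and a further change in association did not pass the adjusted threshold for either. The 95% interval of the association effect was -0.50 to 0.16 for PAICS and -0.87 to -0.001 for PRPS1.

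How were the mRNAs spread between polysomes and cytosol? With the deposited values 6 of the 10 were higher in Poly NT than in Total NT (16.8% of all genes were called higher) and 5 of 10 in PP242 cells (16.1% of all genes). Here and above, shares are over all genes, many of them dimmer than the 10, and shares among equally bright genes were not computed. The median difference in vehicle was -0.158 over all genes and -0.05 over those with a group mean of at least 6. The largest of the 10 was ATIC, with a difference of 1.27 ± 0.10 (adjusted p = 2.46e-08), from 11.07 (SD 0.10) to 12.33 (SD 0.12). GART (0.97 ± 0.15), IMPDH2 (0.93 ± 0.11), PFAS (0.68 ± 0.11), ADSL (0.63 ± 0.12) and PPAT (0.61 ± 0.17) followed. PAICS (0.02 ± 0.11), IMPDH1 (0.15 ± 0.11), PRPS2 (0.25 ± 0.18) and PRPS1 (0.26 ± 0.15) were not called. With only the arrays compared, PRPS1 and PRPS2 were called higher (adjusted p = 0.0241 and 0.0365). PRPS1 was also called with array weights (0.0381), and PRPS2 without Total 242 replicates 2 and 4 (0.0417), which alters only the shared spread.

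The size of these differences depends on the scale, since the arrays of each pool look normalized apart: the median of all genes was -0.158 with the deposited values and 0.029 with quantile scaling over the 16 arrays. Under quantile scaling 5 were higher and PAICS turned to lower (-0.33, adjusted p = 0.0157), and with each array centred on its median all 10 were higher. ATIC, GART, IMPDH2, PFAS and PPAT were called higher in vehicle under each of the 3 scalings and cyclic loess. The GART value belongs to its leading probe set, as its 8 others ran from -0.26 to 0.78 with none called, and both other PPAT probe sets were negative (-0.38 and -0.45, the latter called). The second probe sets of PAICS (0.83) and PRPS1 (0.58) were called higher, so their ratios depend on the probe set too.

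After PP242 the difference was 0.92 ± 0.10 for ATIC, 0.90 ± 0.11 for PFAS, 0.69 ± 0.18 for PRPS2, 0.66 ± 0.11 for IMPDH2 and 0.56 ± 0.15 for GART. PRPS2 was not called without Total 242 replicates 2 and 4 (0.23, adjusted p = 0.126), and its second probe set was called lower (-0.41, adjusted p = 0.0195). The other GART probe sets ran from -0.325 (244822_at, not called) to 0.5525 (210005_at, called higher). PAICS (-0.15 ± 0.11) and PRPS1 (-0.17 ± 0.15) were on the other side of 0 and not called. Under cyclic loess both were lower, at -0.43 and -0.37. Other probe sets were called higher: 201014_s_at of PAICS (mean 9.94) at 0.46 (adjusted p = 0.00394) and 208447_s_at of PRPS1 (mean 8.6) at 0.35 (0.0249). The PAICS set 214664_at, with a mean of 3.61 below the array medians, was called lower (-0.82). The sign for both genes therefore depends on the probe set.

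**Figure D4:**
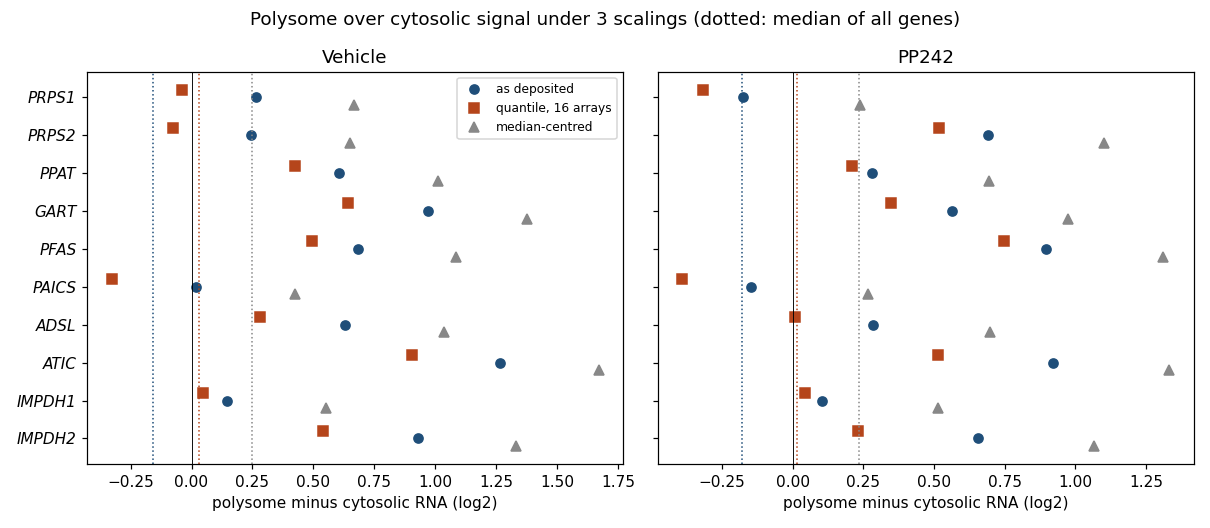
Polysome minus cytosolic signal (log2, horizontal axis) of each gene in vehicle (left) and PP242 cells (right) under 3 scalings of the arrays; dotted lines are the median of all genes under each scaling. The shift between scalings is large, and ATIC lies farthest to the right in vehicle under each, at 1.27, 0.90 and 1.67.

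How did the neighbouring genes of purine metabolism behave? The enzymes and partners next to the pathway fell on polysomes in part, while several breakdown enzymes rose. The lists were drawn up by function, and their counts stand against 6.55% of all genes called lower and 6.81% higher on polysomes, and 7.91% lower and 8.54% higher in the cytosol. Of 5 measured genes of the AMP and GMP branch and the PRPP synthetase partners, 3 fell on polysomes and 1 in the cytosol, with polysome and cytosolic medians of -0.40 and -0.22 against -0.005 and 0.040 over all genes. GMPS, which makes GMP behind IMPDH, fell from 11.11, 11.17, 11.39 and 11.42 to 10.52, 10.48, 10.74 and 10.91 on polysomes. Its groups did not overlap, and the effect was -0.61 ± 0.14 (adjusted p = 0.00609), against -0.22 ± 0.14 in the cytosol, where it was not called; the mean of its probe sets was called there (-0.46, adjusted p = 0.00141). The GMPS polysome call was lost without all arrays of number 2 (adjusted p = 0.0594) and with numbers 3 and 4 only (0.126). With the block ADSS1, of the AMP branch, was lower in the cytosol (adjusted p = 0.0323). PRPSAP2 and PRPSAP1, which bind the PRPP synthetases, had -0.53 ± 0.10 and -0.40 ± 0.11 on polysomes. The PRPSAP1 call was lost without any one of Poly NT replicates 1 and 2 (adjusted p = 0.0589 and 0.0612) and Poly 242 replicates 3 and 4 (0.0749 and 0.0608), under quantile scaling (0.0886) and cyclic loess (0.0543), and with the mean of its probe sets (-0.20, 0.124).

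Folate enzymes supply the formyl groups that GART and ATIC use. Of 9 measured, 3 fell on polysomes (6.55% of all genes) and 2 in the cytosol (7.91%), with 0 higher in either. MTHFD2, the mitochondrial dehydrogenase of the route, fell from 10.49, 10.50, 11.12 and 11.41 to 9.35, 9.22, 9.96 and 10.03 on polysomes. The groups did not overlap, the effect was -1.24 ± 0.22 (adjusted p = 6.00e-04), and in the cytosol it was -1.37 ± 0.22. MTHFD1, the cytosolic enzyme, had -0.47 ± 0.12 and SHMT2, the mitochondrial serine enzyme, -0.57 ± 0.18 on polysomes. MTHFD2L had -0.87 ± 0.23 in the cytosol, not called without Total 242 replicates 2 and 4 (adjusted p = 0.176). The SHMT2 call (adjusted p = 0.0430) was lost without Poly NT replicate 2, 3 or 4 or Poly 242 replicate 1, 2 or 3 (0.0566 to 0.128), and that of MTHFD1 without Poly NT replicate 2 (0.0637) or Poly 242 replicate 3 (0.0654). With the mean of all probe sets MTHFD1 on polysomes (-0.23, adjusted p = 0.186) and MTHFD2L in the cytosol (-0.17, 0.138) were not called, nor was SHMT2 under quantile scaling (0.140) or cyclic loess (0.0782).

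Salvage enzymes recycle bases and nucleosides. Of 7 measured, 3 fell on polysomes (6.55% of all genes) and 2 in the cytosol (7.91%). DCK, the deoxycytidine kinase that also takes purine deoxynucleosides, fell by 0.90 ± 0.16 on polysomes and by 1.13 ± 0.16 in the cytosol. HPRT1, which recycles guanine and hypoxanthine, had -0.40 ± 0.10 and -0.34 ± 0.10, the latter not called without Total NT replicate 1 (adjusted p = 0.0532) or 2 (0.0534). With the mean of its probe sets HPRT1 was called in neither pool. ADK, the adenosine kinase, had -0.62 ± 0.16 on polysomes and -0.16 ± 0.16 in the cytosol, where the mean of its probe sets was called (-0.56, adjusted p = 0.00859). When single replicate numbers or arrays were left out, the polysome adjusted p reached 0.0985 for HPRT1 and 0.0869 for ADK. With the block DGUOK and PNP were called lower on polysomes as well (adjusted p = 0.0124 and 0.00511).

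Of 9 measured purine nucleotide kinases 3 fell on polysomes (6.55% of all genes), and in the cytosol 2 fell (7.91%) and 1 rose, a share near the 8.54% of all genes. NME4, a mitochondrial nucleoside diphosphate kinase, had -0.76 ± 0.17 on polysomes, AK1, an adenylate kinase, -0.74 ± 0.17 and AK4, its mitochondrial relative, -0.43 ± 0.12. The AK4 call was lost without Poly NT replicate 4 (adjusted p = 0.0658) or Poly 242 replicate 1 (0.0733) or 3 (0.0631). For AK1 the polysome adjusted p reached 0.0526 when single replicate numbers or arrays were left out. In the cytosol AK6 had -0.50 ± 0.15, AK1 -0.54 ± 0.17 and NME3 0.75 ± 0.16. The AK6 and AK1 cytosolic calls were each lost without 1 of several arrays: Total NT replicate 3 or 4 or Total 242 replicate 1 for AK6 (0.0674 to 0.0840), and Total NT replicate 1, 2 or 4 or Total 242 replicate 1 or 3 for AK1 (0.0600 to 0.0906). AK1 in the cytosol was also lost with the mean of its probe sets (-0.28, 0.144), and AK4 on polysomes under quantile scaling (-0.28, 0.110) and cyclic loess (0.0596). NME3 was not called without Total 242 replicates 2 and 4 (0.0635). The block added NME1 (lower, 0.0223) and NME3 (higher, 0.0339) on polysomes and AK4 (lower, 0.0203) in the cytosol.

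Of 11 measured genes of purine breakdown and interconversion 3 rose on polysomes (6.81% of all genes) and 3 in the cytosol (8.54%), and 1 fell on polysomes, a share near the 6.55% of all genes. XDH, the xanthine dehydrogenase that ends purine breakdown, rose on polysomes from 7.29, 7.57, 7.55 and 7.51 to 8.91, 8.96, 9.04 and 9.05. The groups were 1.34 apart, and the effect was 1.51 ± 0.12 on polysomes and 1.38 ± 0.12 in the cytosol. AMPD3, an AMP deaminase, rose by 0.99 ± 0.14 and 1.10 ± 0.14 from vehicle means of 4.87 and 5.49, low on the scale. NT5E, the surface enzyme CD73 that makes adenosine, rose by 0.72 ± 0.16 on polysomes, and was called in the cytosol without Total 242 replicate 2 (0.61, adjusted p = 0.00409). Its polysome adjusted p reached 0.054 when single replicate numbers or arrays were left out. NT5C, a nucleotidase, rose by 0.69 ± 0.16 in the cytosol (adjusted p = 0.103 without Total 242 replicates 2 and 4). ADA, the adenosine deaminase, had -0.41 ± 0.12 on polysomes (adjusted p = 0.0323), lost without any one Poly 242 replicate (0.0534 to 0.107) or Poly NT replicate 1 (0.0813) or 2 (0.104) and under quantile scaling (0.110); with the block it was lower in the cytosol (0.0354).

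MYC, a known activator of several of the pathway genes, was called higher in both pools, and ATF4 was not called. A link between these factors and the 10 genes was not tested. MYC rose on polysomes from 10.42, 10.47, 10.01 and 10.04 to 11.28, 11.35, 10.77 and 10.87, an effect of 0.83 ± 0.15 (adjusted p = 9.24e-04), and by 0.97 ± 0.15 in the cytosol (adjusted p = 2.21e-04). ATF4 had -0.19 ± 0.17 on polysomes and 0.02 ± 0.17 in the cytosol, with neither called. The arrays measure the mRNAs of these factors, not their proteins.

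**Figure D5:**
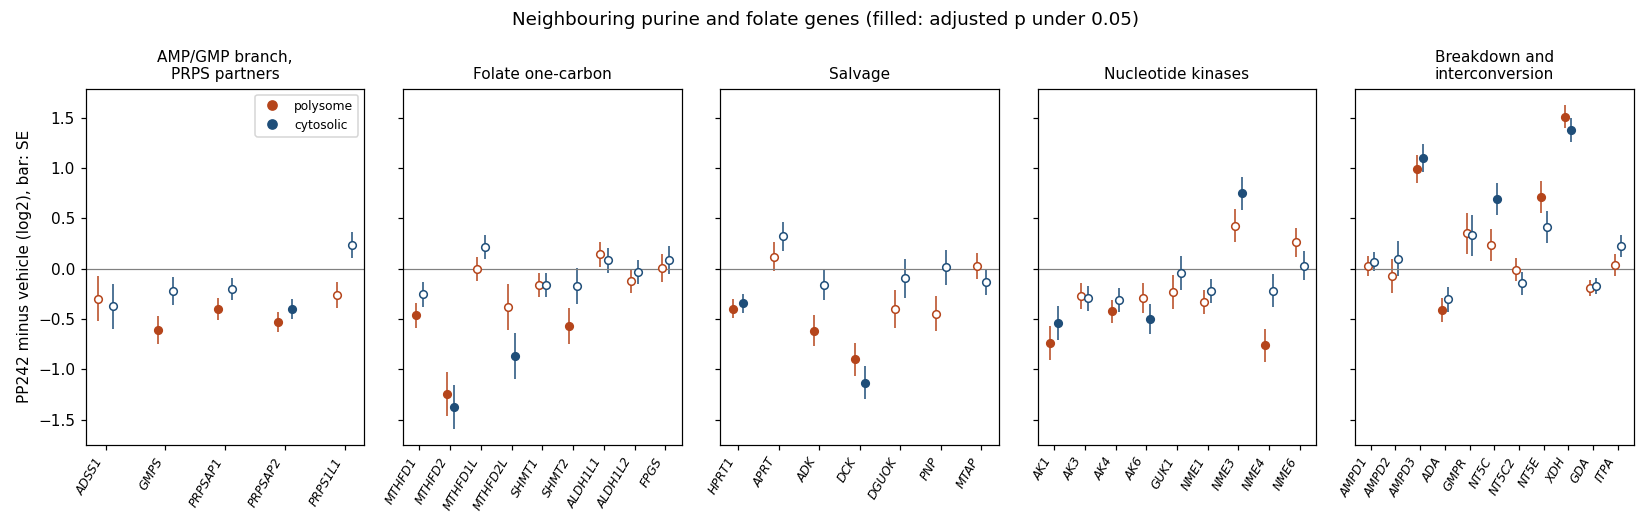
PP242 minus vehicle (log2, vertical axis, bars are standard errors) for the measured genes of 5 neighbouring lists in polysome and cytosolic RNA; filled points had an adjusted p under 0.05. MTHFD2 and DCK lie lowest in their lists, and XDH and AMPD3 highest in theirs.

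How alike were the 10 patterns? With each value centred on the mean of its pool, PRPS1 and PAICS were the closest pair over the 16 arrays (Pearson r = 0.938). PPAT was closest to GART (0.841), ATIC to IMPDH2 (0.824), ADSL to GART (0.799), PRPS2 to PAICS (0.748) and IMPDH1 to IMPDH2 (0.698). PFAS stood apart, with 0.342 to PRPS2 as its highest value. Some pairs ran in opposite directions: PRPS2 had -0.754 with ATIC, -0.681 with IMPDH2 and -0.565 with IMPDH1, and PAICS had -0.345 with ATIC. The mean profile of the 10 therefore averages unlike patterns. Outside the 10, the genes most like their mean profile were FARSA (0.985), a phenylalanyl-tRNA synthetase subunit, SHMT2 (0.968), TUBB (0.967), MRTO4 (0.964) and SRP68 (0.959). They are the highest of all genes by choice, and the arrays share treatment, replicate number and array quality, so these values are a description only.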

How the data were processed

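Log2 values of 54613 probe sets on 16 arrays were deposited, summarised by RMA per the submitters' processing notes. How arrays were normalized, and any model used, is not given in the sources used here. Genes were named with the array's gene table: 41091 probe sets list 1 gene and were used, 1801 list several and 11721 are not in the table. The probe set with the highest mean stood for each of 19775 genes. Some genes of the neighbouring lists were not analysed here.

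In R 4.3.3, limma 3.58.1 took 1 mean for each of the 4 groups (eBayes, intensity trend) and gave two-sided p-values, adjusted by Benjamini-Hochberg over all genes. The fit was tested on simulated data. Members and lists were chosen with earlier results of these data known. Beside the 10 genes, up to 5 called genes of each list with the smallest polysome p are named, with MYC and ATF4 always named.

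Whether equal numbers pair arrays was checked: deviations from group means correlated above 0.1 in 16 of 16 same-number pairs of the groups compared (0.164 to 0.510) and in 23 of 24 over all groups (lowest 0.026), so the blocked value is printed where it changes a call. The number of arrays limits the precision. Each contrast was refitted under up to 32 alternatives of scaling, filter, probe set summary, block and arrays, of which 1 (without cytosolic PP242 arrays 2 and 4) was chosen after seeing the data.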

Additional observations from a re-analysis of the deposited data

Results flagged for a closer look

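In 2 of 40 groups of 4 arrays (10 genes in 4 groups), 1 array lay far from the other 3, measured as its gap to the nearest of them over the range of the group; chance gives about 1 in 20. PRPS1 in Poly NT read 10.12 on replicate 1 against 10.40 to 10.44 on the others, a gap of 0.875 of the range. PAICS in Total 242 read 10.66 on replicate 4, one of the low-weight arrays, against 10.40 to 10.43, a gap of 0.885 of the range. Both calls, of PRPS1 on polysomes and of PAICS in the cytosol, held without each of these arrays.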

How the results depend on the processing

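The count of genes lower on polysomes (3) became 5 with array weights, with the replicate block and without cytosolic PP242 arrays 2 and 4, a setting chosen after the values were seen; leaving out a replicate number or an array gave 2 to 4. The count lower in the cytosol (3) became 1 with numbers 3 and 4 only and stayed at 3 without any replicate. The count higher in the cytosol (1) became 2 with quantile scaling and with cyclic loess, 0 with array weights, with only the arrays compared, with numbers 3 and 4 only and without cytosolic PP242 arrays 2 and 4, and 0 to 2 without single replicates. The replicate block changed no call beyond those named with the results and ADSL below. Association calls stayed at 0 of 10 in all 32 alternatives, although the count over all genes became 132 without Total 242 replicate 3.

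For polysome over cytosolic RNA, the vehicle count of 6 higher became 10 with median-centred arrays, with 1 lower under quantile scaling and under cyclic loess. In PP242 cells the 5 higher became 8 with median-centred arrays and 3 with the mean of all probe sets, quantile scaling, cyclic loess and numbers 3 and 4 only. The 0 lower became 1 with quantile scaling and with numbers 1 and 2 only, 2 with cyclic loess, and 0 to 1 without single replicates. ADSL was called higher in PP242 cells with the block (adjusted p = 0.0207).

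With other probe sets several signs turned. PPAT on polysomes was 0.463 with 235833_at. PPAT in vehicle was -0.077 with the mean of all probe sets, -0.383 with 209434_s_at and -0.453 with 235833_at. GART in vehicle was -0.263, -0.152 and -0.153 with 217445_s_at, 230766_at and 244822_at, and in PP242 cells -0.230, -0.103 and -0.325 with 212379_at, 216990_at and 244822_at. PRPS2 in PP242 cells was -0.410 with 230352_at, which was called lower (adjusted p = 0.0195). Signs also turned in PP242 cells for genes whose leading set was not called. PAICS with 201014_s_at (0.460, adjusted p = 0.00394) and PRPS1 with 208447_s_at (0.350, 0.0249) were called higher. PPAT with 235833_at was called lower (-0.415, 0.0333). Of the GART sets named, 216990_at (mean 2.308) and 217445_s_at (mean 4.398) lay below the array medians. The cause of these changes was not tested. Over all genes the polysome count of 2641 ran from 1085 (numbers 3 and 4 only) to 4013 (block), and the cytosolic count of 3253 from 1058 to 4929 under the same settings.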
